A study of Rattus norvegicus with 25 samples.

Results

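Day 7 was compared with day 3 after immediate replantation of a rat tooth. Per the labels and the study design, a maxillary first molar of a Sprague–Dawley rat was extracted, kept dry for 5 min and put back in its socket, and the tooth with its periodontal ligament was taken 3 or 7 days later. The libraries are those titled IR-3 rep1 to rep6 and IR-7 rep1 to rep6, 12 of the 25 libraries of the series, with 6 per day, and all genes of the deposited count files were examined. The 12 libraries titled DR-3 and DR-7, from teeth kept dry for 60 min, served for the shared estimate of spread and for a test of the difference between drying times. All animals carry the age postnatal day 21, without a word on whether that is the age at surgery or at collection, and every tooth had been extracted and dried, so neither day is an untouched state. The labels do not say that libraries came from separate animals, and p-values therefore measure the spread between libraries, which may be technical.

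The periodontal ligament is the collagen-rich tissue that ties the root to the alveolar bone. After replantation its torn fibres pass through clot, inflammation, clearance of dead tissue by macrophages and neutrophils, and rebuilding of collagen and elastic fibres by fibroblasts. Osteoclasts recruited in the same days can resorb root and bone, and for that reason the first week is known as the time in which ligament repair and resorption compete.

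Libraries were made from total RNA with a Lexogen QuantSeq kit, which primes on the poly(A) tail and reads close to the 3′ end, so that a count does not depend on transcript length. The 12 libraries held 5792920 to 8521931 counts each. Levels are given as log2 CPM, the log2 of CPM (counts scaled to library size) after TMM scaling with a prior count of 2, and 0 counts appear as -1.78 on this scale. A gene at 0 counts may still have been present at up to 3 counts, which is 0.352 to 0.518 CPM in these libraries. A gene is said to have risen or fallen where its adjusted p was below 0.05 over the 11492 genes tested with edgeR's quasi-likelihood test. In bulk tissue of this kind, fewer cells of a type and less RNA per cell cannot be told apart.

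The day 3 libraries were not alike, and several stood apart in ways that bear on each result. Ligament and bone markers were low in day 3 replicate 6, where periostin (Postn) had 26 counts against 3094 to 6785 at day 7, and the bone matrix gene Dmp1 had 25 counts against 2029 to 6291. The same library held 2.65% of its counts in a list of lipid-secreting gland genes, while the other 11 libraries held at most 0.00545% (the marker list is not specific to one gland). A list of nasal gland genes took 23.8% of counts in day 3 replicate 3, 27.5% in replicate 4 and 6.49% in replicate 5, and 9.44% in day 7 replicate 6. Its median over libraries was 3.43% at day 3 and 0.634% at day 7. Skeletal muscle genes took between 0.00263% and 0.427% of counts at day 3 and between 0.00479% and 0.331% at day 7. Ribosomal RNA entries took 10.7% to 31.5% at day 3 and 9.81% to 23.2% at day 7. Of the tooth's own cell types, the odontoblast marker Dspp had 0 to 22 counts per library and the enamel gene Amelx 0 to 151. Nes, of the odontoblast and dental mesenchyme list, had 0 to 188 counts on day 3 and 45 to 120 on day 7. It had a count in 11 of the 12 libraries. Of that list 10 genes were measured, 9 with a positive fold change, with a median of 0.56, and none passed the test. The label of tooth thus rests here more on ligament and bone genes than on Dspp or Amelx. Results are therefore also given for a reduced set of 3 day 3 libraries (replicates 1, 2 and 5) against the 6 of day 7, which leaves out day 3 replicates 3, 4 and 6, or without replicate 6 alone. The reduced set is not free of nasal gland counts, since it keeps day 3 replicate 5 and day 7 replicate 6. In it the median log2 fold change, day 7 minus day 3, was 0.67 for nasal gland genes and -1.46 for olfactory epithelium genes. With all 12 libraries these medians were -2.24 and -1.71. A fit with the levels of 3 of the tissue lists (lipid-secreting gland, nasal gland and skeletal muscle) as covariates is given with the number of genes that passed.

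**Figure D1:**
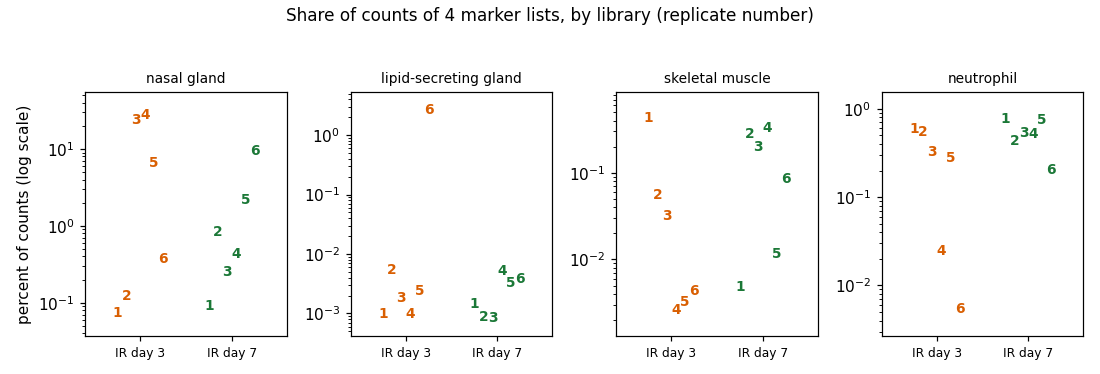
Percent of all counts (log axis) taken by 4 marker lists in each of the 12 immediate replantation libraries, printed as replicate numbers, with day 3 in orange and day 7 in green. Day 3 replicates 3, 4 and 5 are high for nasal gland genes, day 3 replicate 6 stands alone for lipid-secreting gland genes at 2.65%, and day 3 replicates 4 and 6 are lowest for neutrophil genes.

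The spread between libraries was wider on day 3. The root mean square log2 difference of a library to the mean of the other 5 in its group averaged 1.31 ± 0.398 (SD, n = 6) on day 3 and 0.783 ± 0.193 (SD, n = 6) on day 7, a difference of 0.529 (two-sided exact permutation p = 0.0108, where the smallest possible is 0.00216). Of the 11492 genes, 9759 (84.9%) had the larger SD on day 3, and the median SD was 0.780 on day 3 and 0.412 on day 7. Without day 3 replicate 6 the difference of the distances was 0.363.

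From day 3 to day 7, 16 of 11492 genes (0.139%) passed the test, 12 of them higher (0.104%) and 4 lower (0.0348%) on day 7. Those that rose were the elastic fibre genes Eln and Fbln1, the adenosine-degrading enzyme Ada, the small GTPase Rab24, and Rilpl2, Dennd1c, Arrdc2, C1qtnf2, Cd72, Tesk1, Fam98c and Lrrn4cl. Those that fell were the glycoprotein genes Ngly1 and Slc35a3, the fatty acid desaturase Scd2 and Eapp. At an unadjusted p below 0.05 there were 2340 genes, against 575 that this threshold alone would give, with 899 higher (7.82%) and 1441 lower (12.5%) on day 7. In 67 genes (0.583%) all 6 day 7 libraries lay above all 6 of day 3, and in 65 genes (0.566%) all lay below. Of the 16 genes that passed, 14 were among these, and Slc35a3 and Eapp were the exceptions. The median log2 fold change over all genes was -0.09, and 43.5% of genes had a value above 0.

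The number of genes that passed depended on single libraries and on the tool. No gene passed when day 3 replicate 3, 4 or 6, or day 7 replicate 2 or 4, was left out, and 402 passed without day 3 replicate 1. DESeq2 called 748 genes (249 higher, 499 lower), and limma-voom with sample quality weights called 4493, of which 2373 were higher (20.6%) and 2120 lower (18.4%). Those weights were 3.09, 2.34 and 1.33 for day 3 replicates 3, 4 and 5, the day 3 libraries with the most nasal gland counts, and 0.275, 0.226 and 0.144 for replicates 1, 2 and 6. With the 3 tissue covariates 14 genes passed, 5 higher and 9 lower, and 4 of the 16 were among them. All 16 genes kept their sign under each alternative tried. That is no separate support, since the alternatives reuse the same libraries from which the 16 were picked. In 14 of the 16 the groups did not overlap, so leaving out libraries could not turn the sign.

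**Figure D2:**
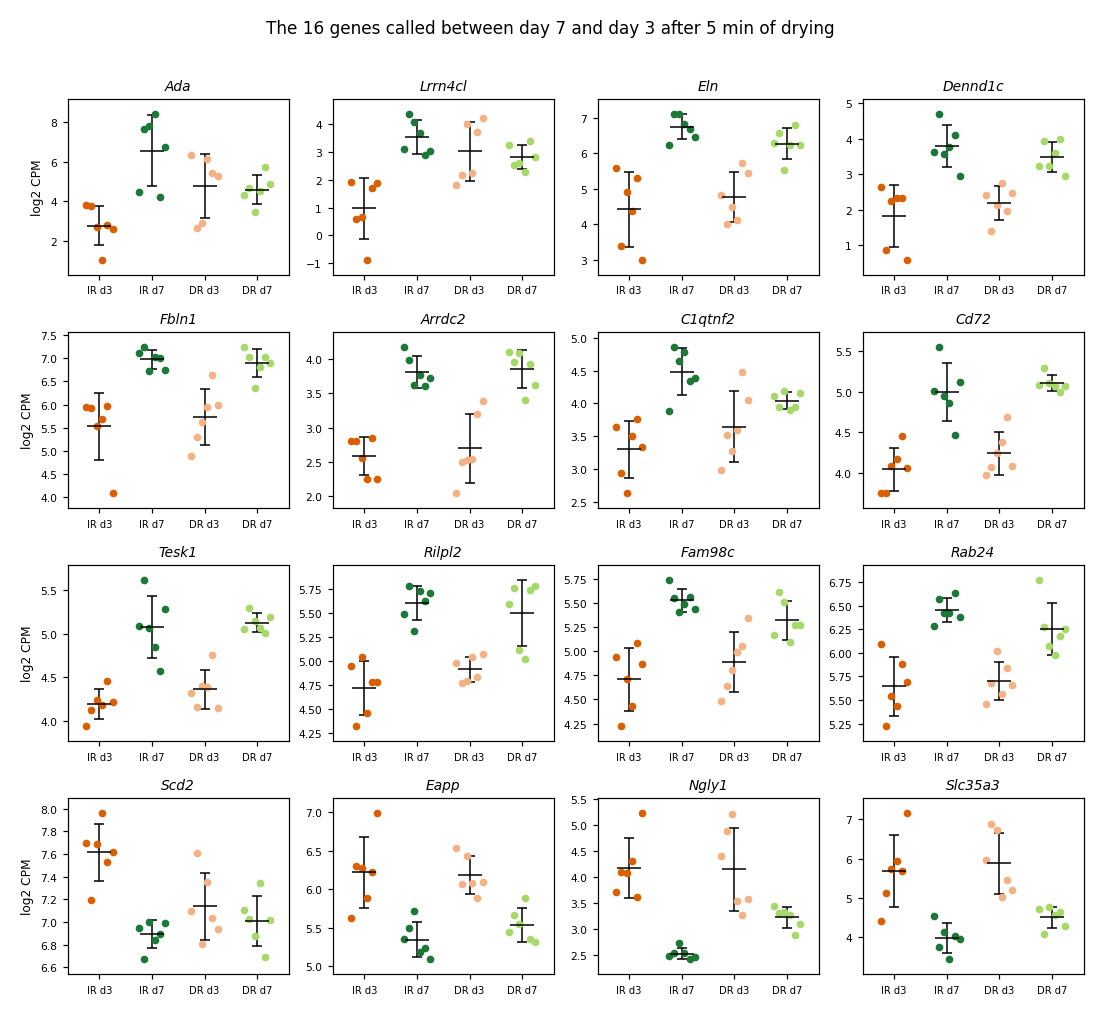
Level in log2 CPM of the 16 genes that passed the test, with 1 point per library, the mean as a line and the SD as bars, for day 3 and day 7 after 5 min (IR) and after 60 min (DR) of drying. In 14 of the 16 panels the IR day 7 points do not overlap the IR day 3 points, and Ada and Lrrn4cl are the panels in which DR does not move the same way.

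Promoter windows of 3 of these genes are shown, because Ada had the largest rise, Slc35a3 the largest fall and C1qtnf2 the most kinds of motif. Of the 16 genes, 10 had a window in RefSeq's table of the GRCr8 build, each 300 bases long and ending shortly after the annotated start. Each is written 5′ to 3′ on the strand of the gene, with matches in capitals to CCAAT (the CCAAT box), GGGCGG (the GC box) or CACGTG (an E-box), read on both strands. The windows lie at chr3:172842234-172842533 on the minus strand, chr2:207344168-207344467 on the minus strand and chr10:28443205-28443504 on the plus strand.
Ada: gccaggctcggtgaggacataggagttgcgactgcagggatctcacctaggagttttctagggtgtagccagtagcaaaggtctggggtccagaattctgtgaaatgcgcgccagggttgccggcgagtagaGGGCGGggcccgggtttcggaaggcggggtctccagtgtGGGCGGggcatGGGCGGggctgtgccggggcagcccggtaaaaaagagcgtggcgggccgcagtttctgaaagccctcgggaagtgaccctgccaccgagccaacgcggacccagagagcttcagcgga
Slc35a3: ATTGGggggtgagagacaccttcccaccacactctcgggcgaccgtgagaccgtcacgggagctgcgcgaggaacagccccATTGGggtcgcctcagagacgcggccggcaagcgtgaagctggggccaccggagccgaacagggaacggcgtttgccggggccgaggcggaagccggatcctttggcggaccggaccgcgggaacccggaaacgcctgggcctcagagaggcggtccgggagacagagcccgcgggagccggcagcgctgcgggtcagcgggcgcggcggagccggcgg
C1qtnf2: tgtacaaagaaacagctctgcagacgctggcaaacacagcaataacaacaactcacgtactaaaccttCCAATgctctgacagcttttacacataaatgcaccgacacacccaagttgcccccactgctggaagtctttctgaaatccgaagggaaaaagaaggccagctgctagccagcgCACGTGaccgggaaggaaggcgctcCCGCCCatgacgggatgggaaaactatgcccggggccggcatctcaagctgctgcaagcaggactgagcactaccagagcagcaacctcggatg
The Ada window holds 3 GC boxes and no CCAAT box, that of Slc35a3 holds 2 CCAAT boxes and no GC box, and that of C1qtnf2 holds 1 of each and an E-box. CCAAT was present in 7 of the 10 windows and in 37.5% of all 33469 windows of the table, and GGGCGG in 6 of 10 and in 33.1% of all. CACGTG was in 1 of 10 against 6.42% of all. The TATA box motif TATAAA, found in 14.2% of all windows, was in none of the 10. The same held for an AP-1 motif, TGACTCA, which 4.63% of all windows have. These matches describe the letters in the windows and nothing about the binding of a factor.

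Elastic fibre genes gave 2 of the 16. Eln encodes elastin, the rubber-like core of elastic fibres, and its lowest, median and highest level was 2.99, 4.64 and 5.60 log2 CPM on day 3 and 6.24, 6.76 and 7.12 on day 7. Every day 7 library lay above every day 3 library, and day 3 replicates 2 and 6 were the lowest. The log2 fold change was 2.08 (SE 0.386, adjusted p = 0.0318), and 1.78 in the reduced set (adjusted p = 0.666). Fbln1 encodes fibulin-1, a glycoprotein of elastic fibres and basement membranes. It lay at 4.09, 5.81 and 5.98 on day 3 and at 6.73, 7.01 and 7.25 on day 7, with a log2 fold change of 1.34 (SE 0.274, adjusted p = 0.0441). Its groups did not overlap, and day 3 replicate 6 was far below the other 5. Of 18 measured elastic fibre genes, 16 had a positive fold change, with a median log2 fold change of 0.92 beside -0.09 over all genes. At an unadjusted p below 0.05, 8 were higher on day 7, beside 7.82% of all genes. Mfap4, a microfibril-associated protein, had 1.30 (SE 0.318, adjusted p = 0.0794) and Ltbp4, which holds latent TGF-beta in the matrix, had 1.39 (SE 0.389, adjusted p = 0.111), neither past the threshold. Fbln5, which assembles elastin onto microfibrils, went the other way with -1.73 (SE 0.875, adjusted p = 0.265). The median of the list was 0.43 in the reduced set, with 14 of 18 positive and 5 at an unadjusted p below 0.05 beside 3.06% of all genes.

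Ada had the largest fold change of the 16. It encodes adenosine deaminase, which turns adenosine, an anti-inflammatory signal released by injured tissue, into inosine. Its level was 1.02, 2.73 and 3.79 log2 CPM on day 3 and 4.21, 7.20 and 8.43 on day 7. The groups did not overlap, and within day 7 the libraries parted into 4 near the top and 2 close to the bottom of the range. The log2 fold change was 4.28 (SE 0.762, adjusted p = 0.0229), and 3.81 in the reduced set (adjusted p = 0.666). Its neighbour Pkig had a value of -0.052 (adjusted p = 0.909). Of 13 measured genes that make, sense, carry or clear adenosine, 10 had a positive fold change, with a median of 0.47. At an unadjusted p below 0.05, 4 had a higher level, beside 7.82% of all genes. The purine phosphorylase Pnp, which acts on the inosine that Ada makes, had 0.82 (SE 0.265, adjusted p = 0.124). The receptor gene Adora2a had 1.60 (SE 0.754, adjusted p = 0.235), and Nt5e, which makes adenosine from AMP outside the cell, had 0.42 (SE 0.350, adjusted p = 0.492).

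Rab24, Rilpl2, Dennd1c and Arrdc2 rose with no overlap between the days. Rab24, a small GTPase linked to autophagy, had 5.22, 5.62 and 6.09 log2 CPM on day 3 and 6.29, 6.42 and 6.63 on day 7, with a log2 fold change of 0.78 (SE 0.154, adjusted p = 0.0435). Rilpl2, which binds Rab proteins, had 4.32, 4.78 and 5.04 on day 3 and 5.31, 5.67 and 5.78 on day 7, with a fold change of 0.88 (SE 0.155, adjusted p = 0.0229). The groups of both were apart with no overlap, and the day 7 libraries of Rab24 lay within a narrow range. Dennd1c, an activator of Rab GTPases, had 0.58, 2.28 and 2.64 on day 3 and 2.94, 3.70 and 4.70 on day 7, with a fold change of 1.93 (SE 0.367, adjusted p = 0.0365). Arrdc2, an alpha-arrestin that helps sort membrane proteins for uptake, had 2.24, 2.68 and 2.85 on day 3 and 3.60, 3.75 and 4.19 on day 7, with a fold change of 1.26 (SE 0.227, adjusted p = 0.0229). No library of either day crossed into the other group for Dennd1c or Arrdc2. In the reduced set the values were 0.72 for Rab24, 0.95 for Rilpl2, 1.85 for Dennd1c and 1.09 for Arrdc2.

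Cd72 and Tesk1 lie over each other in the genome, and their reads may not be told apart without the strand setting. Cd72 encodes a coreceptor that dampens B cell signalling, and Tesk1 a kinase of cofilin that acts on actin. Cd72 had 3.76, 4.08 and 4.46 log2 CPM on day 3 and 4.47, 4.98 and 5.55 on day 7 (log2 fold change 0.97, SE 0.17, adjusted p = 0.0229). Tesk1 had 3.94, 4.20 and 4.46 on day 3 and 4.58, 5.08 and 5.62 on day 7 (log2 fold change 0.93, SE 0.156, adjusted p = 0.0229). The day 7 libraries lay above those of day 3 in both, though the lowest of day 7 was close to the highest of day 3 for Cd72. The 2 genes had equal counts in 2 of the 12 libraries and differed by at most 23% in the rest, so they are 2 names for what may be 1 signal.

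The remaining genes that rose were C1qtnf2, Fam98c and Lrrn4cl. C1qtnf2, a secreted protein of the C1q and TNF related family, had 2.64, 3.43 and 3.76 log2 CPM on day 3 and 3.89, 4.52 and 4.86 on day 7 (log2 fold change 1.18, SE 0.241, adjusted p = 0.0441). Fam98c had 4.22, 4.79 and 5.09 on day 3 and 5.41, 5.52 and 5.75 on day 7 (0.80, SE 0.161, adjusted p = 0.0441), and it overlaps Rasgrp4, which was too low to be tested. Lrrn4cl had -0.89, 1.19 and 1.91 on day 3 and 2.89, 3.41 and 4.39 on day 7 (2.50, SE 0.505, adjusted p = 0.0441). Each of the 3 had all 6 libraries of day 7 above those of day 3, and the level of Lrrn4cl was so low on day 3 that few reads carry its fold change.

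Both glycoprotein genes that fell act on N-linked sugar chains. Ngly1 encodes the cytosolic enzyme that strips such chains from misfolded glycoproteins, and it had 3.62, 4.09 and 5.24 log2 CPM on day 3 and 2.41, 2.51 and 2.73 on day 7. All day 7 libraries were below all of day 3 and close together, and day 3 replicate 6 was the highest. The log2 fold change was -1.80 (SE 0.315, adjusted p = 0.0229). Slc35a3 encodes a Golgi carrier of UDP-N-acetylglucosamine. It had 4.41, 5.72 and 7.16 on day 3 and 3.45, 4.0 and 4.55 on day 7, with a log2 fold change of -1.93 (SE 0.378, adjusted p = 0.0435). The groups touched, since the lowest day 3 library was below the highest of day 7. Day 3 replicate 6 was again the highest, and without it the value for Slc35a3 was -1.47 (adjusted p = 0.0813). In the reduced set the values were -1.29 for Ngly1 and -1.10 for Slc35a3 (adjusted p = 0.666 and 0.805). Among 25 measured genes of N-glycan assembly and glycoprotein quality control, 11 had a positive and 14 a negative fold change, 8 were lower at an unadjusted p below 0.05 beside 12.5% of all genes, and the median was -0.16. Dad1, a subunit of the oligosaccharyl transferase, had -0.72 (SE 0.164, adjusted p = 0.0734), and the chaperone Canx had -0.53 (adjusted p = 0.124). In the reduced set 3 of the 25 were lower at an unadjusted p below 0.05, beside 2.82% of all genes, and the median was -0.011.

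Scd2 and Eapp were the other genes that fell. Scd2 encodes a stearoyl-CoA desaturase, which puts the double bond into newly made fatty acids, and it had 7.20, 7.65 and 7.96 log2 CPM on day 3 and 6.67, 6.92 and 7.00 on day 7. The groups did not overlap, and the log2 fold change was -0.74 (SE 0.146, adjusted p = 0.0437). Across the 12 fits that each left out 1 library the value for Scd2 lay between -0.81 and -0.66. Of 15 measured genes of fatty acid and sterol synthesis, 11 were lower at an unadjusted p below 0.05, beside 12.5% of all genes. A negative fold change was found in 14, with a median of -1.43. That median moved with 1 library. Without day 3 replicate 6, the library with lipid-secreting gland genes, the median was -0.44 and 2 of 15 were lower at an unadjusted p below 0.05 beside 7.88% of all genes. The lipogenic enzyme genes Fasn and Acly had values of -3.40 (SE 1.16, adjusted p = 0.130) and -3.63 (SE 1.08, adjusted p = 0.116) with all libraries, short of the threshold. Eapp, a phosphoprotein that binds E2F factors of the cell cycle, had 5.63, 6.25 and 6.99 on day 3 and 5.09, 5.30 and 5.72 on day 7, with a fold change of -0.92 (SE 0.187, adjusted p = 0.0441). Its groups overlapped by a little, and day 3 replicate 6 was the highest. Without that library the value for Eapp was -0.72 (adjusted p = 0.0813). In the genome Eapp overlaps Sptssa, whose value was -4.06 (adjusted p = 0.124).

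No gene of the macrophage, antigen presentation, interferon or T cell lists passed the test, yet nearly all had a higher mean on day 7. All 15 macrophage genes had a positive fold change with a median of 1.40, and 10 were higher at an unadjusted p below 0.05 beside 7.82% of all genes. C1qb, a subunit of complement C1q made by tissue macrophages, had 4.57, 6.24 and 6.91 log2 CPM on day 3 and 6.82, 7.64 and 8.0 on day 7 (log2 fold change 1.40, SE 0.382, adjusted p = 0.104). Apoe, a lipid carrier made by macrophages, had 9.57, 11.22 and 11.81 on day 3 and 11.84, 12.51 and 13.01 on day 7 (1.31, SE 0.364, adjusted p = 0.110). The day 7 libraries of Apoe lay above all of day 3, while those of C1qb overlapped by a little. Adgre1, which encodes the macrophage surface protein F4/80, had 1.91, 2.61 and 3.75 on day 3 and 2.98, 5.23 and 5.85 on day 7 (2.27, SE 0.548, adjusted p = 0.0753). Its groups overlapped. Without day 3 replicate 6 all 15 were positive and 8 had an unadjusted p below 0.05 beside 7.05% of all genes, with a median of 1.17. The reduced set also had 15 of 15 positive, with a median of 0.85 and 4 at an unadjusted p below 0.05 beside 3.06% of all genes.

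All 8 genes of MHC class II presentation had a positive fold change and an unadjusted p below 0.05, beside 7.82% of all genes, with a median of 1.20. Ciita, the master activator of these genes, had 0.13, 1.52 and 2.40 log2 CPM on day 3 and 1.05, 3.17 and 4.0 on day 7 (log2 fold change 1.74, SE 0.478, adjusted p = 0.107). RT1-Db1, a rat class II beta chain, had 5.03, 8.03 and 8.82 on day 3 and 8.42, 9.10 and 9.90 on day 7 (1.19, SE 0.408, adjusted p = 0.131). Both overlapped between days, and day 3 replicate 6 stood far below the other libraries for RT1-Db1. The reduced set tested 9 of these genes, all positive, with a median of 0.83. Of them 4 had an unadjusted p below 0.05, beside 3.06% of all genes.

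The 14 interferon response genes all had a positive fold change, with a median of 1.50 and 9 at an unadjusted p below 0.05 beside 7.82% of all genes. Isg15, a ubiquitin-like protein that interferon induces, had 3.16, 3.78 and 5.46 log2 CPM on day 3 and 3.71, 6.93 and 7.67 on day 7 (log2 fold change 2.69, SE 0.836, adjusted p = 0.124). Mx1, an antiviral GTPase, had 1.76, 2.83 and 3.91 on day 3 and 3.11, 5.61 and 6.36 on day 7 (2.46, SE 0.651, adjusted p = 0.0947). In both, day 7 replicate 6 lay among the libraries of day 3, and the other 5 lay above them. The reduced set had 14 of 14 positive with a median of 1.27, and 5 had an unadjusted p below 0.05 beside 3.06% of all genes.

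Most chemokine and lymphocyte genes also had positive values. All 13 measured chemokine genes were positive, with a median of 1.45 and 5 at an unadjusted p below 0.05 beside 7.82% of all genes. Cxcl13, which draws B cells, had 0.38, 4.05 and 5.52 log2 CPM on day 3 and 4.74, 7.10 and 7.79 on day 7 (log2 fold change 2.51, SE 0.723, adjusted p = 0.113). Cxcl10, which draws T cells, had -1.78, 1.13 and 2.21 on day 3 and 1.79, 4.24 and 5.29 on day 7 (3.18, SE 1.03, adjusted p = 0.124). The groups of both genes overlapped at their edges. Of 11 T and NK cell genes 10 were positive, with a median of 1.54 and 5 higher at an unadjusted p below 0.05, beside the same 7.82%. Cd8a of cytotoxic T cells had 2.26 (SE 0.695, adjusted p = 0.121). Of 6 B and plasma cell genes 5 were positive, with a median of 1.16. The reduced set gave medians of 0.88 for chemokines, 1.25 for T and NK cells and 1.13 for B and plasma cells.

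**Figure D3:**
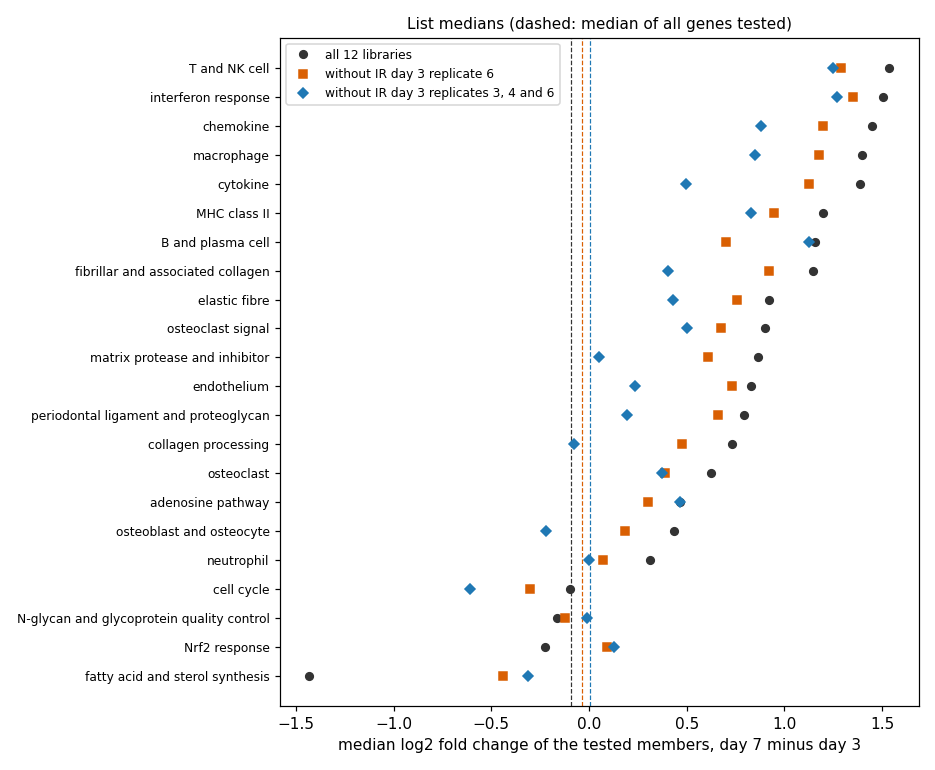
Median log2 fold change, day 7 minus day 3, of the tested members of 22 gene lists, with all 12 libraries (circles), without day 3 replicate 6 (squares) and in the reduced set without day 3 replicates 3, 4 and 6 (diamonds); dashed lines give the median of all genes in the same colour. The T and NK cell and interferon medians stay above 1.2 in the 3 sets, the protease, collagen processing and osteoblast medians lie near 0 or below in the smallest set, and the fatty acid median moves from -1.43 to -0.44 without replicate 6.

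Collagen genes had higher means on day 7, with day 3 values spread over a wide range. Col1a1, the main chain of ligament and bone collagen, had 8.51, 13.65 and 15.08 log2 CPM on day 3 and 14.97, 15.33 and 16.37 on day 7 (log2 fold change 1.53, SE 0.666, adjusted p = 0.204). The groups overlapped at 1 library, since day 3 replicate 2 was as high as the lowest of day 7, and day 3 replicate 6 was far below all others. Col3a1, the collagen of early repair tissue, had 7.80, 9.84 and 12.45 on day 3 and 11.97, 12.61 and 13.20 on day 7 (1.60, SE 0.690, adjusted p = 0.201). Of 12 measured fibrillar and associated collagens 11 were positive, with a median of 1.15 and 4 higher at an unadjusted p below 0.05 beside 7.82% of all genes. All 11 genes of collagen processing were positive, with a median of 0.73, and Adamts2, which trims procollagen, had 2.75, 3.97 and 4.96 on day 3 and 5.10, 5.64 and 6.12 on day 7 (1.47, SE 0.354, adjusted p = 0.0734). Adamts2 was the member of these lists nearest to the threshold, and its groups did not overlap. The reduced set gave medians of 0.41 for collagens, with 10 of 12 positive, and -0.076 for collagen processing, with 5 of 11 positive. The collagen median was thus smaller, and that of collagen processing changed sign. At an unadjusted p below 0.05, 0 of the 12 collagens were higher and 1 lower there, beside 3.06% and 2.82% of all genes.

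Ligament genes also had a wide range on day 3. Postn, the matricellular protein that marks the periodontal ligament, had 2.47, 7.11 and 10.19 log2 CPM on day 3 and 8.36, 9.66 and 9.91 on day 7 (log2 fold change 0.99, SE 0.845, adjusted p = 0.498). Day 3 replicates 1 and 2 were as high as day 7, and replicates 3 to 6 were lower. Of 15 ligament and proteoglycan genes 14 were positive, with a median of 0.79 and 2 at an unadjusted p below 0.05, a share not far from the 7.82% of all genes. Thbs2, a matricellular protein, had 2.06 (SE 0.842, adjusted p = 0.185), and Tnmd, a marker of tendon and ligament cells, had 1.42 (SE 0.615, adjusted p = 0.203). The list's median was 0.19 and the value of Postn 0.16 in the reduced set.

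Osteoclast and bone genes gave no gene past the threshold, and their day 3 levels split by library. Acp5, the tartrate-resistant acid phosphatase of osteoclasts, had 3.37, 7.70 and 11.35 log2 CPM on day 3 and 10.07, 10.77 and 11.33 on day 7 (log2 fold change 1.35, SE 0.920, adjusted p = 0.401). Ctsk, the protease with which osteoclasts digest collagen, had 3.37, 8.70 and 11.73 on day 3 and 10.43, 11.43 and 12.31 on day 7 (1.39, SE 0.958, adjusted p = 0.404). Mmp9, made by osteoclasts and neutrophils, had -1.78, 5.64 and 9.31 on day 3 and 8.08, 9.39 and 10.19 on day 7 (1.64, SE 1.12, adjusted p = 0.400). For these 3 genes day 3 replicates 1 and 2 lay at or near the range of day 7, and replicates 3 to 6 lay below it. All 10 measured osteoclast genes were positive with a median of 0.62. Only Ostm1, the partner subunit of the lysosomal chloride carrier Clcn7, had an unadjusted p below 0.05 (0.63, SE 0.171, adjusted p = 0.101), beside 7.82% of all genes. Of the signals, Csf1, a growth factor for osteoclast precursors, had 1.36 (SE 0.513, adjusted p = 0.159), and Tnfrsf11b, the decoy receptor that holds osteoclasts back, had -0.46 (SE 0.515, adjusted p = 0.618). Among 11 osteoblast and osteocyte genes 10 were positive, with a median of 0.44 and none at an unadjusted p below 0.05, and Bglap, the osteocalcin of bone matrix, had 0.95 (SE 0.610, adjusted p = 0.373). In the reduced set the values were 0.50 for Acp5, 0.57 for Ctsk and 0.75 for Mmp9, and the median of the osteoblast list was -0.22.

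**Figure D4:**
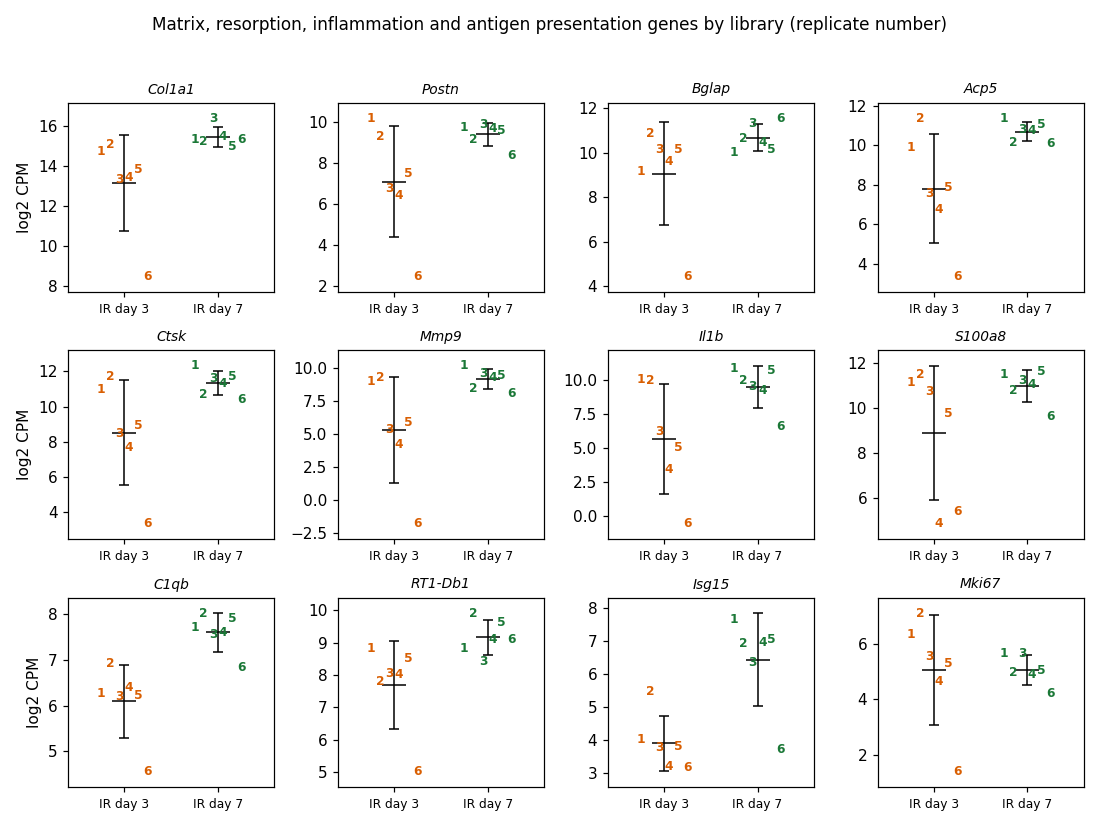
Level in log2 CPM of 12 genes of matrix, bone, resorption, inflammation, macrophages, antigen presentation, interferon response and cell division, printed as replicate numbers for day 3 (orange) and day 7 (green), with the mean as a line and the SD as bars. For Postn, Acp5, Ctsk, Mmp9 and Il1b day 3 replicates 1 and 2 lie near the day 7 libraries and replicates 3 to 6 lower, and day 3 replicate 6 is lowest for all but S100a8.

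Neutrophil, cytokine and protease genes had wide ranges on day 3. S100a8, a calcium-binding protein stored in neutrophils, had 4.88, 10.24 and 11.48 log2 CPM on day 3 and 9.62, 11.13 and 11.60 on day 7 (log2 fold change 0.75, SE 0.977, adjusted p = 0.667). Il1b, a main inflammatory cytokine of myeloid cells, had -0.53, 5.63 and 10.01 on day 3 and 6.60, 9.73 and 10.84 on day 7 (1.46, SE 1.27, adjusted p = 0.509). The neutrophil share of counts had a median of 0.300% on day 3 and 0.527% on day 7, with overlapping ranges. Of 13 neutrophil genes 7 were positive, with a median of 0.31, and Elane, a granule enzyme of young neutrophils, had -1.65 (SE 1.12, adjusted p = 0.399). Of 8 cytokine genes 6 were positive with a median of 1.39, and of 18 matrix proteases and inhibitors 14 were positive with a median of 0.86. These medians were 0.0014 for neutrophils, 0.50 for cytokines and 0.049 for proteases in the reduced set. With sample quality weights 6 of 13 neutrophil genes were positive with a median of -0.52, so the sign of that median flips with the weighting. In that weighted fit 5 of the 13 passed as higher and 0 as lower, beside 20.6% and 18.4% of all genes.

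Cell division genes had values on either side of 0. Mki67, a marker of cycling cells, had 1.44, 5.40 and 7.08 log2 CPM on day 3 and 4.20, 5.00 and 5.65 on day 7 (log2 fold change -0.63, SE 0.591, adjusted p = 0.539). Day 3 held both the highest libraries, replicates 1 and 2, and the lowest, replicate 6. Of 24 cell cycle genes 9 were positive and 15 negative, with a median of -0.10 beside -0.09 over all genes. At an unadjusted p below 0.05, 3 were lower, a share equal to the 12.5% of all genes. Aurka, a mitotic kinase, had -0.87 (SE 0.307, adjusted p = 0.140). Without day 3 replicate 6, 3 of the 24 were positive with a median of -0.30, and in the reduced set it was 1 of 24 with a median of -0.61. With sample quality weights, which give replicates 3, 4 and 5 the most weight, 21 of 24 were positive with a median of 0.45, so the direction of this list flips with the weighting.

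Vessel genes and the oxidative stress response complete the lists. Of 13 endothelial genes 12 were positive with a median of 0.83, and Tie1, a receptor of endothelial cells, had 2.75, 4.04 and 5.66 log2 CPM on day 3 and 4.97, 6.02 and 6.26 on day 7 (log2 fold change 1.30, SE 0.460, adjusted p = 0.140). The endothelial median was 0.24 in the reduced set. Of 12 genes of the Nrf2 response, which guards against oxidants, 8 were negative with a median of -0.22. Cat, the catalase gene, had 5.02, 5.55 and 10.18 on day 3 and 5.02, 5.33 and 5.75 on day 7 (-2.49, SE 0.891, adjusted p = 0.141). A single library, day 3 replicate 6, lay far above the rest for Cat, and without it 7 of the 12 genes were positive with a median of 0.091.

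The change over time was then compared with that after 60 min of drying. The delayed fold changes rest on other libraries, but the p-values of both drying times use the same shared estimate of spread. A low shared spread of a gene lowers its p-value at both drying times. The delayed p-values are therefore not independent of the immediate ones. In the delayed group 1 gene of 11492 (0.0087%) passed the test between days, Rfx5, a factor that binds MHC class II promoters, named after its value was seen, with a log2 fold change of 1.11 (adjusted p = 0.0378). Of the 16 genes that passed after 5 min, 14 had the same sign after 60 min, and 12 had an unadjusted p below 0.05 there. Over all 11492 genes, 2589 had an unadjusted p below 0.05 after 60 min. The delayed values were 1.41 for Eln, 1.08 for Fbln1, 1.14 for Arrdc2, -1.12 for Ngly1 and -1.54 for Slc35a3. Scd2 with -0.14 (SE 0.145) and C1qtnf2 with 0.32 (SE 0.238) had the same sign but no unadjusted p below 0.05 after 60 min.

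No gene passed edgeR's test of the difference between drying times (0% of 11492; smallest adjusted p = 0.689), and 346 genes (3.01%) had an unadjusted p below 0.05. DESeq2 called 11 genes for this difference. The smallest p was that of Ada, which after 60 min had 2.64, 5.33 and 6.34 log2 CPM on day 3 and 3.45, 4.58 and 5.74 on day 7. Its delayed groups overlapped over nearly their whole range, with a log2 fold change of -0.61 (SE 0.667). The difference for Ada, delayed minus immediate, was -4.89 (SE 0.994, adjusted p = 0.689). Lrrn4cl also had a delayed value of the other sign, -0.47 (SE 0.474), and a difference of -2.97 (SE 0.687). Neither is shown to differ between drying times at this depth and number of libraries, although their delayed day 3 levels already overlapped those of day 7.

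**Figure D5:**
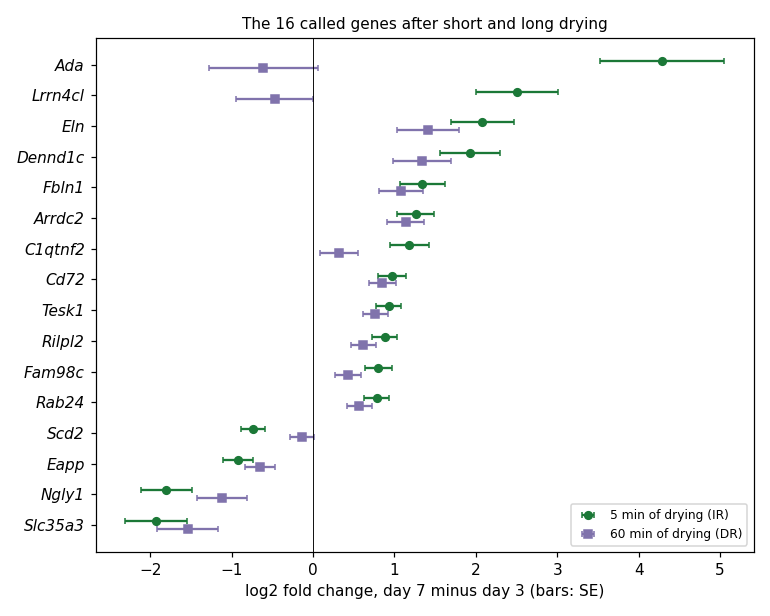
Log2 fold change, day 7 minus day 3, of the 16 genes that passed the test after 5 min of drying (green circles) and the same genes after 60 min (purple squares), with the SE as bars. Ada and Lrrn4cl lie on opposite sides of 0 for the 2 drying times, and the other 14 lie on the same side.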

How the data were processed

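Tooth and periodontal ligament RNA was profiled by 3′ end sequencing. The authors deposited raw counts, whole numbers by gene symbol, in a separate file for each library and without normalisation. The submitters' processing notes name Bowtie2, edgeR and the builds mm10 and rn6. For their roles and versions, the annotation, the strand setting and the counting tool, the answer is not given in the sources used here, so overlapping or near-identical genes may share reads. Each file held 17048 entries and 16881 symbols, and for 149 repeated symbols the entry with the highest total was kept.

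The 24 replanted libraries were fitted together in R 4.3.3 with edgeR 4.0.16 (filterByExpr, TMM, robust quasi-likelihood F test, 4 group means, residual df 20), with Benjamini-Hochberg adjustment over 11492 genes, and the code was tested on simulated data. Alternatives used DESeq2 1.42.0, limma 3.58.1, other scalings and filters, fewer libraries, 3 tissue covariates and a replicate block. The genes named are those that passed, up to 3 of smallest p or up to 4 that passed in each of 22 described lists, and 12 chosen genes. Further list members were named after their values were seen. The genes, the lists and the comparison were chosen with earlier results of these data known. Promoter windows come from RefSeq (GRCr8), whose gene table was used for names and neighbours only. The single untreated library was not analysed here.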

Additional observations from a re-analysis of the deposited data

Results flagged for a closer look

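In 162 groups of 6 libraries, 26 had a library whose gap to its nearest neighbour was large for the range of the group, and chance gives about 1 in 20 such groups. That rate holds for independent groups, whereas these come from the same 12 libraries, so the count is no test against chance. Levels are log2 CPM.

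On day 3, replicate 6 was lowest and apart for Col1a1 (8.51) and Col1a2 (8.61), the chains of type I collagen, for the bone genes Bglap (4.45) and Phex (1.32), and for the elastic fibre gene Fbln1 (4.09). It was also lowest for the macrophage gene C1qb (4.57), the class II gene RT1-Db1 (5.03), the chemokine Cxcl13 (0.38), the T cell gene Cd3d (-1.78) and the cytokine Il18 (-0.53). The same library was highest and apart for the oxidative stress genes Cat (10.18), Slc7a11 (8.59) and Prdx1 (10.25). Day 3 replicate 2 was highest for Isg15 (5.46), and day 3 replicate 1 was highest for Plaur (6.57), the receptor of urokinase.

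On day 7, replicate 6 was lowest and apart for Ctss (6.73), a protease of antigen presentation, for Isg15 (3.71), for Csf3r (1.79), the growth factor receptor of neutrophils, for the endothelial gene Plvap (5.26), for Plaur (3.56) and for the cytokine Il6 (-1.78). It was highest for the mitotic kinase Aurka (5.00), and its distance to the other day 7 libraries was the largest of its group, at 1.15 on the log2 scale. Day 7 replicate 3 was highest for Col1a1 (16.37) and Col1a2 (15.27) and lowest for the B cell gene Blk (-0.088).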

How the results depend on the processing

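The count of genes between day 7 and day 3 was 16 and became 748 with DESeq2, 9 with limma-voom, 4493 with sample quality weights, and 0 without day 3 replicates 3, 4 and 6 (704 at an unadjusted p below 0.05) or with the 12 immediate libraries alone (1626 unadjusted). Leaving out 1 library gave between 0 and 402. With 3 tissue covariates 14 genes passed, 5 higher and 9 lower, and 4 of the 16 were among them. The other scalings and filters gave 14 to 20. Replicate numbers did not pair the libraries: same-numbered deviations correlated between -0.294 and 0.337, and 0 of 6 libraries matched its own number best. With a replicate block in the 12 immediate libraries 0 genes passed (1642 unadjusted), as in those libraries without it. The difference between drying times had 0 genes, 11 with DESeq2, 771 with sample quality weights and 0 with a replicate block in all 24 libraries. The larger library distance on day 3 held under all alternatives, between 0.363 and 0.663 when 1 library was left out.

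Of single genes, Slc7a11 turned to 0.22 with sample quality weights, 0.30 without day 3 replicates 3, 4 and 6, and 0.026 with covariates, and lay between -2.65 and 0.31 when 1 library was left out. Il6 turned to -0.57 without those 3 replicates and -0.37 with covariates, and lay between -0.077 and 1.78 with 1 library left out. With sample quality weights Cdc20 turned to 0.52 and Tnfrsf11b to 0.16. Tnfrsf11b lay between -0.67 and 0.10 with 1 library left out, and Cat was 0.093 without day 3 replicates 3, 4 and 6. The cause was not tested. Among the remaining values of named genes 1798 kept their direction and side of the threshold, 77 passed it and 194 lost it. Only the 16 genes that passed the test could lose it, so all 194 losses are theirs. The 1798 also hold values of named genes that did not pass and stayed so, and are no measure of how stable the 16 are. With 1 library left out, each of the 16 passed in between 2 (Scd2) and 7 (Cd72 and Tesk1) of 12 fits. The 3 libraries left out together reduce the day 3 group to 3, which limits what that fit can call, and depth limits genes near 0 counts.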

Other observations

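Medians of other gene groups are given here as log2 fold changes with all 12 libraries and then in the reduced set without day 3 replicates 3, 4 and 6. Of 15 immediate early genes, which answer fresh stimuli within minutes to hours, 13 were positive with a median of 0.76, and the reduced set gave 0.12. Of 14 genes of hypoxia and glycolysis 11 were positive with a median of 0.32, and the reduced set gave -0.014. The 17 genes of TGF-beta and BMP signalling had a median of 0.37 and then 0.071, and the 18 Wnt genes had 0.45 and then 0.068. Pericyte and smooth muscle genes had 6 of 12 positive with a median of 0.11. Schwann cell genes had 5 of 10 positive with a median of -0.14 and then 1 of 10 with -0.43. Erythroid genes had 2 of 7 positive with a median of -0.24 and then 0 of 8 with -0.78. None of these lists held a gene that passed the test.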
